A study of Mus musculus with 6 samples.

Results

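The nuclear factor I (NFI) transcription factors were the subject of the measurements below. The members were the genes whose symbol in the deposited isoform table is Nfia, Nfib, Nfic or Nfix, which makes 4 genes of 27694 in all. They took up 74 isoforms of the table. RNA had been measured in 6 untreated mouse neural stem cell cultures (strain C57/Bl6), kept as dividing cells in serum-free medium with FGF-2 and EGF. The 3 cultures labelled wild type (WT) and the 3 labelled vimentin knock out (KO) shared strain, medium and library preparation. The labels do not say how the vimentin allele was made, how old the animals were or whether each culture had an animal of its own. The p-values therefore refer to the spread between these libraries, which may be technical. Ribosomal RNA had been removed before strand-specific paired-end sequencing.

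NFI proteins bind DNA as dimers of any of the family members, through a DNA-binding domain near the N-terminus that is nearly the same in all of them, while the C-terminal parts that activate or repress transcription differ and are cut in many forms by alternative splicing. Their full site is a palindrome of TTGGC and GCCAA with any 5 bases between, and one side of it can be enough for binding. In the developing nervous system, Nfia and Nfib are known as switches from making neurons to making glia, Nfix as a regulator of the timing of differentiation and of stem cell quiescence, and Nfic, the least studied of them in the brain, for its part in tooth root formation. Mice that lack Nfia, Nfib or Nfix have delayed glial differentiation and defects of the forebrain midline or hippocampus.

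The genes lie at separate loci, and in the table none of them shares an assembled locus with another gene. Nfia is on the plus strand of chromosome 4 (97581438 to 98118874), Nfib on the minus strand of chromosome 4 (82290171 to 82705750), Nfic on the minus strand of chromosome 10 (81396186 to 81431379) and Nfix on the minus strand of chromosome 8 (84699876 to 84800344). No genome build is named in the sources used here, but all 32 annotated NFI isoforms have the same start and end in GENCODE release M21, which is on GRCm38. Start sites are shown here because each NFI gene other than Nfib was read from several of them. RefSeq windows of 250 bases before to 50 bases after a start (build GRCm38.p6, strand of the gene) were given for Nfia, Nfix and Nfic, and of several Nfix windows the one with the highest level of isoforms starting within 300 bases of its start is printed. Capitals mark TTGGC and its reverse complement GCCAA, the core of one side of the palindrome, searched on both strands. GCCAA can overlap the CCAAT box.
Nfia, chr4:97581693-97581992, plus strand: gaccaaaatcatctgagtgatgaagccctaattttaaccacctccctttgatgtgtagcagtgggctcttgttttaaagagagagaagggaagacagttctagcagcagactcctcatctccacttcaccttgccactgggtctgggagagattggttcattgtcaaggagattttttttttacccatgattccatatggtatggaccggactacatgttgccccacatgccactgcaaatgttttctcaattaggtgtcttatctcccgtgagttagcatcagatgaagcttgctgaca
Nfix, chr8:84773361-84773660, minus strand: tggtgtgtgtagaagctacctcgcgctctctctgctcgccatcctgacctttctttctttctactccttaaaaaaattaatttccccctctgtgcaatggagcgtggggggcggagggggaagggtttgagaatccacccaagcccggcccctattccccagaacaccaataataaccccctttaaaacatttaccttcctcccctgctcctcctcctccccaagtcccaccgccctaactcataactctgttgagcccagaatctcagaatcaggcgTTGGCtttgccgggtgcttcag
Nfic, chr10:81427124-81427423, minus strand: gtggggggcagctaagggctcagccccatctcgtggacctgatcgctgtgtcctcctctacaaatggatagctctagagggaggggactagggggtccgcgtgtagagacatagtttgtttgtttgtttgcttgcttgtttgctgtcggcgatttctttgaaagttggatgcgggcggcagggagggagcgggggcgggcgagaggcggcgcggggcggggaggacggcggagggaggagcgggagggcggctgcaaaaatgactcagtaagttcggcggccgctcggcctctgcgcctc
The Nfix window held 1 such core, 28 bases after the start, and the Nfia and Nfic windows held none. The Nfix windows that are not printed held 0 to 2 cores. No window was given at the starts with the largest part of the Nfix level (84800024 to 84800344). The same holds for the other starts of Nfia and Nfic described below, so these were not searched. Of all 32851 RefSeq windows of this length, 46.7% held at least 1 core, and 12 held the full palindrome, none of those printed here. The guanine and cytosine content was 44.7% in the Nfia window, 53% in the Nfix window and 63% in the Nfic window. Isoforms starting within 300 bases of these starts had 2.61 to 9.67 FPKM for Nfia, 10.98 to 21.96 FPKM for Nfix and 0.881 to 6.33 FPKM for Nfic across the 6 libraries. FPKM counts fragments scaled to transcript length and to the fragments of the library. Levels can thus be compared between genes, as far as reads are given to isoforms of the right length.

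Depth was 4.26 to 5.43 Gb of aligned bases per library. By the coverage columns, that gave 6301 to 20333 reads of 150 bases for Nfia, Nfib and Nfix in a library and 903 to 1951 for Nfic. Vim, the gene the knockout was meant to remove, was at 191, 179 and 186 FPKM in WT-labelled libraries and at 650, 732 and 624 FPKM in KO-labelled ones. Vim RNA was thus higher under the label KO, opposite to what a loss of Vim RNA would give. The labels do not say how the allele was made, and the reason was not tested. The groups are therefore called by their labels throughout. Of the neural stem cell markers, all 6 were on average above 1 FPKM, and their summed level was 817 to 1067 FPKM in WT-labelled libraries and 1097 to 1160 in KO-labelled ones. One of them, the single-exon gene Sox2, was listed at 0 in every library labelled KO and at 0 to 53.3 FPKM in WT-labelled ones. All 4 microglial and all 4 endothelial and mural markers were on average below 1 FPKM, as were 4 of 5 neuronal and 3 of 4 fibroblast markers, the exceptions being Tubb3 and Pdgfra. Summed astrocyte markers were at 152 to 637 FPKM in WT-labelled libraries and 401 to 452 in KO-labelled ones, and oligodendrocyte lineage markers at 10.9 to 15.2 and 4.83 to 5.51 FPKM. Most of the WT-labelled range of the astrocyte sum came from Aldoc, at 6.40 to 488 FPKM in those libraries and at 291 to 350 in KO-labelled ones. In bulk RNA, fewer cells of a type and less RNA per cell cannot be told apart. The library WT 2 stood apart. Isoforms of the kinds left out of gene levels (intronic, intergenic, antisense and run-on) held 16.4% of its FPKM, against 3.99% to 5.49% in the other 5 libraries.

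All the NFI genes were expressed, and none differed between the groups beyond the spread between libraries. Nfix had the highest FPKM in each of the 6 libraries and Nfic the lowest. Nfia and Nfib lay between, Nfia above Nfib in 3 of the 6 libraries, so the order of those neighbours was not fixed. The rank of Nfix depends on isoform length. In each library Nfix had fewer reads than Nfia, 6301 to 12507 against 9091 to 19250. The highest Nfix isoform has 1728 bases, and the highest annotated Nfia isoform has 9526. Among the 12080 genes tested (mean of at least 1 FPKM), Nfix lay at percentile 96.8 of the mean level, Nfib at 93.9, Nfia at 93.0 and Nfic at 56.5. In limma on log2(FPKM + 1), 0 of the 4 passed a Benjamini-Hochberg adjusted p of 0.05, while 6.9% of all genes tested did (441 with KO-labelled libraries higher, 392 with them lower). None of the 4 had an unadjusted p under 0.05, against 2972 of the 12080. None had groups that did not overlap, against 33.3% of all genes tested. With so few members, these counts say nothing particular about the family.

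Nfia, which starts astrocyte production from neural progenitors, was at 38.0, 71.0 and 66.7 FPKM in WT-labelled libraries (58.6 ± 17.9, SD, n = 3) and at 43.6, 47.9 and 45.4 FPKM in KO-labelled ones (45.6 ± 2.17). WT 1 lay below all the KO-labelled libraries, and WT 2 and WT 3 above them. The log2 fold change was -0.30 with a 95% interval of -0.90 to 0.29 (adjusted p = 0.497, limma). This value depended on WT 1. Without it, the change was -0.58 and passed (adjusted p = 0.0404, limma), while adjusted p was 0.442 to 0.843 in the other alternatives tried. Another part of the spread came from WT 2, in which the assembled isoform MSTRG.34384.5 held 21.7 FPKM and which was listed at 0 in the other 5 libraries. With that isoform left out, Nfia in WT 2 was at 49.3 FPKM.

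Nfib, which acts with Nfia in gliogenesis and also in maturation of the lung, had the widest spread of the family. It was at 80.6, 90.4 and 28.9 FPKM in WT-labelled libraries (66.6 ± 33.0, SD, n = 3) and at 75.0, 33.7 and 42.3 FPKM in KO-labelled ones (50.3 ± 21.8). Both groups held a high and a low level, with WT 1, WT 2 and KO 1 at 75.0 FPKM or more and the other 3 libraries at 42.3 or less. The pooled SD within groups was 0.75 on the log2(FPKM + 1) scale, higher than in 92.5% of the 5658 genes with a mean of at least 10 FPKM, whose median was 0.18. The corresponding SD was 0.35 for Nfia, 0.15 for Nfic and 0.16 for Nfix. The log2 fold change of Nfib was -0.32, with a 95% interval of -1.58 to 0.93 (adjusted p = 0.744, limma), so a change of 1.91-fold up or a drop to 0.336 of the WT level lay within the interval. Leaving out 1 library moved this value from -0.83 (without WT 3) to -0.03 (without WT 2), and it did not pass in any of these fits (lowest adjusted p = 0.257, limma).

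Nfix, a regulator of quiescence and differentiation timing in neural stem cells, was at 84.9, 109 and 111 FPKM in WT-labelled libraries (101 ± 14.4, SD, n = 3) and at 80.7, 86.9 and 86.8 FPKM in KO-labelled ones (84.8 ± 3.56). WT 1 lay within the range of the KO-labelled libraries and the other 2 above it. The log2 fold change was -0.25 with a 95% interval of -0.55 to 0.06 (adjusted p = 0.285, limma), and it was negative in each of the 18 alternatives tried, without passing (lowest adjusted p = 0.0832, without WT 1). Nfic was at 9.08, 11.2 and 10.8 FPKM in WT-labelled libraries (10.4 ± 1.12) and at 11.2, 13.1 and 10.4 FPKM in KO-labelled ones (11.6 ± 1.36). Its groups overlapped, with a log2 fold change of 0.14 and a 95% interval of -0.18 to 0.47 (adjusted p = 0.549, limma). This value depended on the choice of isoforms, and in WT 2 assembled isoforms held 83.5% of the Nfic level. Without assembled isoforms of which WT 2 held over 90%, the Nfic change was 0.63 (SE 0.38, adjusted p = 0.377, limma). With reference transcripts only, it was 0.80 (SE 0.55, adjusted p = 0.501, limma). Both choices leave out most of the Nfic level of WT 2, of which MSTRG.5479.2 alone held 69.8%. WT 2 had the most Nfic reads of all libraries (1951), so these values are not better estimates of the change. One by one, exact two-sided permutation tests gave p = 0.4 for Nfia, 0.5 for Nfib, 0.4 for Nfic and 0.3 for Nfix, where 3 against 3 libraries cannot go below 0.1.

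**Figure D1:**
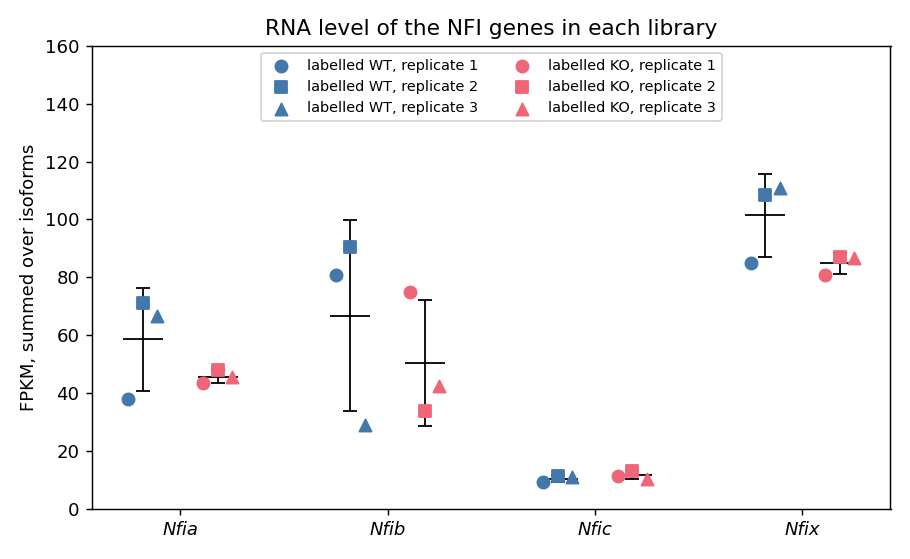
Level of each NFI gene in FPKM (y axis, from 0), summed over its isoforms, with 1 point per library, the mean as a horizontal line and the SD as error bars (n = 3 per label). Nfix lies between 80.7 and 111 FPKM, Nfic between 9.08 and 13.1, and Nfib is split into high and low libraries within each label.

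**Figure D2:**
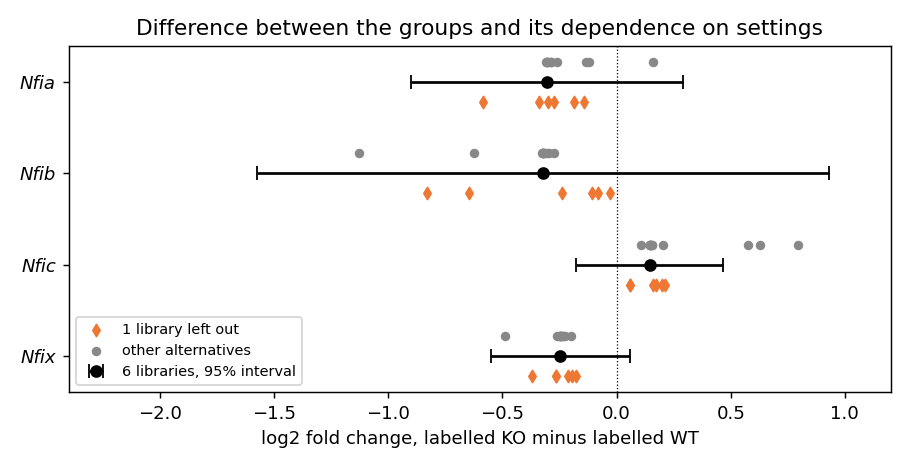
Log2 fold change of each NFI gene, libraries labelled KO minus those labelled WT (x axis), with the 95% interval of the fit to 6 libraries in black, the fits without 1 library as orange diamonds and the other alternatives as grey dots. Each interval includes 0, and the 1 grey dot of Nfia above 0 (0.16) is the fit to its highest isoform only.

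As a family, the summed level was 212.6, 281 and 217 FPKM in WT-labelled libraries (237 ± 38.3, SD, n = 3) and 210.5, 181 and 185 FPKM in KO-labelled ones (192 ± 15.8), a log2 ratio of the means of -0.30. The groups did not overlap, as was the case for 33.3% of the single genes tested, and the step between KO 1 and WT 1 was small, from 210.5 to 212.6 FPKM. The ratio ranged from -0.37 to -0.16 when 1 library was left out, the smallest being without WT 2. Nfix made up 38.6% to 51.0% of the sum in WT-labelled libraries and 38.3% to 47.9% in KO-labelled ones. Nfib had 13.3% to 37.9% and 18.6% to 35.6%, and Nfia 17.9% to 30.7% and 20.7% to 26.4%. Nfic had the smallest part, 3.98% to 4.97% in WT-labelled libraries and 5.34% to 7.19% in KO-labelled ones. These sums and shares were described and not tested.

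Of the 74 isoforms, 54 were kept in the gene levels, 32 of them annotated and 22 assembled from the reads, and 20 that lie within introns were left out. Of the kept isoforms, 39 had a mean of at least 1 FPKM, and they held 97.0% of the NFI level. Those with a lower mean were 3 of Nfia, 3 of Nfib, 3 of Nfic and 6 of Nfix, and none of them had a mean above 0.936 FPKM. In limma, 0 of the 39 passed as isoforms, against 0.139% of the 27399 isoforms tested, and the lowest adjusted p was 0.226. At an unadjusted p under 0.05 there were 2 of 39, against 10.2% of all isoforms. The groups did not overlap for 4 of the 39, against 18.7% of all isoforms. For shares, the ratio of an isoform to the rest of its gene, 0 of the 39 passed, as did 0 of all 25835 tested (limma, 0.0%), with 2 of 39 at an unadjusted p under 0.05 against 6.3% of all (1628). Isoform levels mostly varied more between libraries than the gene levels did. Among tested isoforms, the median coefficient of variation in KO-labelled libraries was 23.6% for Nfia, 46.7% for Nfib, 72.8% for Nfic and 48.6% for Nfix, while that of the gene was 4.76%, 43.3%, 11.7% and 4.204%. In WT-labelled libraries the isoform median was again the higher one, except for Nfib, with 46.9% against 49.6% for the gene.

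Nfib-202 (ENSMUST00000064770), a protein-coding isoform of 9 exons and 8429 bases, was at 52.5, 58.3 and 11.8 FPKM in WT-labelled libraries and at 33.4, 9.75 and 9.49 FPKM in KO-labelled ones. It was high in the same 3 libraries as the gene. It differed by -1.13 on the log2 scale (SE 0.75), within the spread between libraries (adjusted p = 0.642, limma). The rest of Nfib, with this isoform left out, was at 28.1, 32.0 and 17.1 FPKM in WT-labelled libraries (25.7 ± 7.72, SD, n = 3) and at 41.6, 23.9 and 32.8 FPKM in KO-labelled ones (32.8 ± 8.81), so there the KO-labelled mean was the higher one.

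An assembled Nfib isoform of 11 exons and 9829 bases, MSTRG.34053.1, was at 4.26, 2.32 and 5.21 FPKM in WT-labelled libraries and at 16.6, 10.8 and 10.5 FPKM in KO-labelled ones. Each library labelled KO was above all those labelled WT, with a log2 fold change of 1.49 (SE 0.33, unadjusted p = 0.00389, adjusted p = 0.226, limma). It ends with Nfib-202 at the far 3′ end of the gene and begins at 82506454, upstream of the cluster of annotated Nfib starts at 82505308 to 82505779. An annotated start further upstream, at 82705750, belongs to Nfib-212, which was at 0.000171 FPKM or less in each of the 6 libraries. Nfib-208 (ENSMUST00000135024), a retained-intron transcript of 2 exons, was at 2.90, 2.30 and 1.19 FPKM in WT-labelled libraries and at 0.927, 0.336 and 0.921 FPKM in KO-labelled ones (adjusted p = 0.499, limma). Nfib-210 (ENSMUST00000148982), a retained-intron transcript of 5 exons, was at 1.41, 1.17 and 0.294 FPKM in WT-labelled libraries and at 7.05, 1.55 and 2.21 FPKM in KO-labelled ones (adjusted p = 0.533, limma). For both, the groups did not overlap.

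Annotated protein-coding isoforms made up 83.4%, 88.5% and 64.0% of the Nfib level in WT-labelled libraries and 56.2%, 48.1% and 52.6% in KO-labelled ones. Assembled isoforms went from 5.32%, 3.12% and 18.0% to 22.2%, 32.3% and 24.8%, and retained-intron and processed transcripts from 11.3%, 8.35% and 17.9% to 21.7%, 19.6% and 22.6%. In each of these 3 classes the groups did not overlap, although WT 3 stood nearer to the KO-labelled libraries than WT 1 and WT 2 did. The table gives no reading frame for assembled isoforms, so the coding share is a lower limit. Over all 8152 genes whose mean coding share was between 5% and 95%, 12.4% had groups that did not overlap in this share, and 6.22% were lower in KO-labelled libraries in that way. These classes were chosen after their values were seen, and the share was not tested in a fit.

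**Figure D3:**
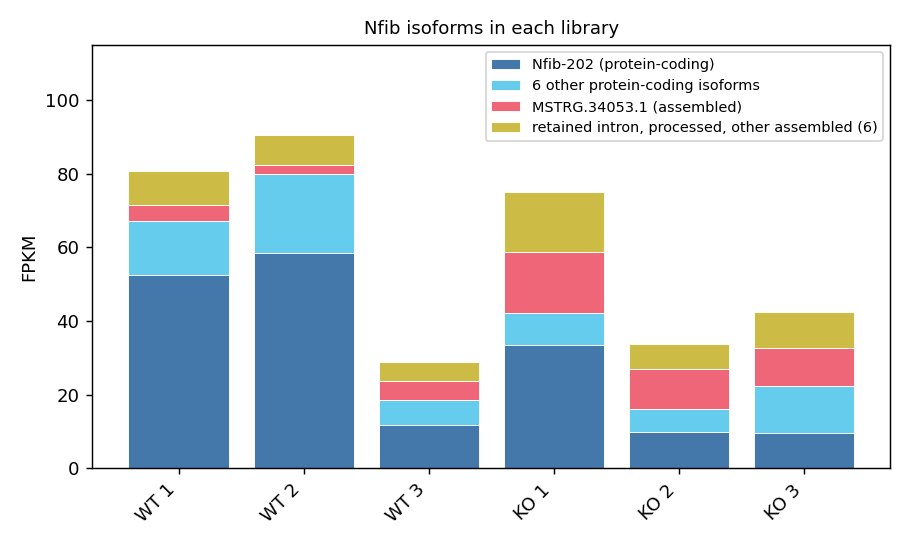
Nfib level in FPKM (y axis, from 0) in each library, stacked by isoform class. Nfib-202 holds 52.5, 58.3 and 33.4 FPKM in WT 1, WT 2 and KO 1 and at most 11.8 in the other 3 libraries, while MSTRG.34053.1 is higher in each library labelled KO than in any labelled WT.

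Nfia was read from a set of 3 start regions. Of its level, the most upstream region (97581438 to 97581658, near the RefSeq start printed above) held 14.0% to 22.5% in WT-labelled libraries and 19.2% to 25.7% in KO-labelled ones. All 3 isoforms that start there were assembled. The middle region (97771765 to 97772734) held 29.7% to 59.3% and 30.1% to 41.0%, the highest share being in WT 2. The third region (97777608 to 97777834), where 5 annotated coding isoforms begin, held 26.1% to 49.4% and 38.1% to 43.3%. The groups overlapped for each region. The highest single isoform by mean, the assembled MSTRG.34384.4 of 12 exons, was at 5.23, 10.0 and 11.2 FPKM in WT-labelled libraries and 8.40, 8.47 and 12.1 FPKM in KO-labelled ones. Among the annotated ones, Nfia-202 (ENSMUST00000075448) was at 11.7, 4.14 and 6.84 FPKM and at 5.05, 5.89 and 7.01 FPKM. No Nfia isoform had groups that did not overlap.

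Within Nfia introns, the table also lists 3 transcripts of 2 exons on the minus strand, opposite to the gene, with lengths of 6260, 5404 and 5077 bases. The libraries were made strand-specific, per the labels' protocols. Their summed level was 4.77, 3.22 and 5.11 FPKM in WT-labelled libraries and 3.78, 4.64 and 4.81 FPKM in KO-labelled ones, and the groups overlapped. Within Nfib introns, 16 unstranded transcripts of 1 exon summed to 6.38, 26.4 and 5.47 FPKM in WT-labelled libraries and 7.66, 8.63 and 11.3 FPKM in KO-labelled ones. Of these 16, 11 were highest in WT 2, the library with the large intronic share. Within Nfix introns there was 1 transcript of 1 exon, on the strand opposite to the gene, and within those of Nfic none. All of these were left out of the gene levels.

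Nfix had a main start region at the 5′ end of the gene (84800024 to 84800344), which held 47.8%, 60.8% and 55.4% of its level in WT-labelled libraries and 60.5%, 54.7% and 64.1% in KO-labelled ones. The region of the printed Nfix window (84773193 to 84774369) held 34.3%, 29.5% and 38.6% and 30.5%, 34.6% and 25.4%. The highest isoform was the coding Nfix-202 (ENSMUST00000099070), with 10 exons and 1728 bases, at 38.3, 37.0 and 51.6 FPKM in WT-labelled libraries and 26.9, 37.1 and 25.6 FPKM in KO-labelled ones (adjusted p = 0.529, limma). Nfix isoforms that end near 84704712 summed to 29.9, 23.7 and 31.9 FPKM in WT-labelled libraries and 18.4, 22.1 and 18.0 FPKM in KO-labelled ones, without overlap. Isoforms ending near 84708614 summed to 43.0, 44.3 and 55.3 FPKM and to 31.5, 43.7 and 37.2 FPKM. The coding isoform ENSMUST00000126806 was listed at 0 in WT 1 and at 25.1 and 7.81 FPKM in WT 2 and WT 3, and at 19.7, 8.06 and 19.7 FPKM in KO-labelled libraries.

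Nfic had the fewest reads, and its level was spread over a pair of start regions. The upstream one (81431005 to 81431379) held 37.7%, 78.4% and 71.4% of the level in WT-labelled libraries and 44.7%, 47.8% and 47.7% in KO-labelled ones. The downstream one (81427114 to 81427187), at the printed Nfic window, held 62.3%, 7.87% and 24.6% and 51.8%, 48.5% and 46.7%. The libraries labelled KO lay close together and those labelled WT did not. In WT 2, the assembled isoform MSTRG.5479.2 alone was at 7.81 FPKM, against 0.236 FPKM or less in the other libraries. Nfic-201 (ENSMUST00000020461), a coding isoform of 10 exons, was at 1.86, 0.239 and 1.74 FPKM in WT-labelled libraries and at 5.09, 4.55 and 2.60 FPKM in KO-labelled ones, without overlap (log2 fold change 1.22, SE 0.43, adjusted p = 0.423, limma). Counted over the family, 0 of 10 start regions and 4 of 18 regions of 3′ ends with a mean of at least 1 FPKM had groups that did not overlap, against 27.6% and 26.6% over all genes tested. Those of the 3′ ends were 2 of Nfib, 1 of Nfic and 1 of Nfix, with 2 higher and 2 lower in KO-labelled libraries.

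**Figure D4:**
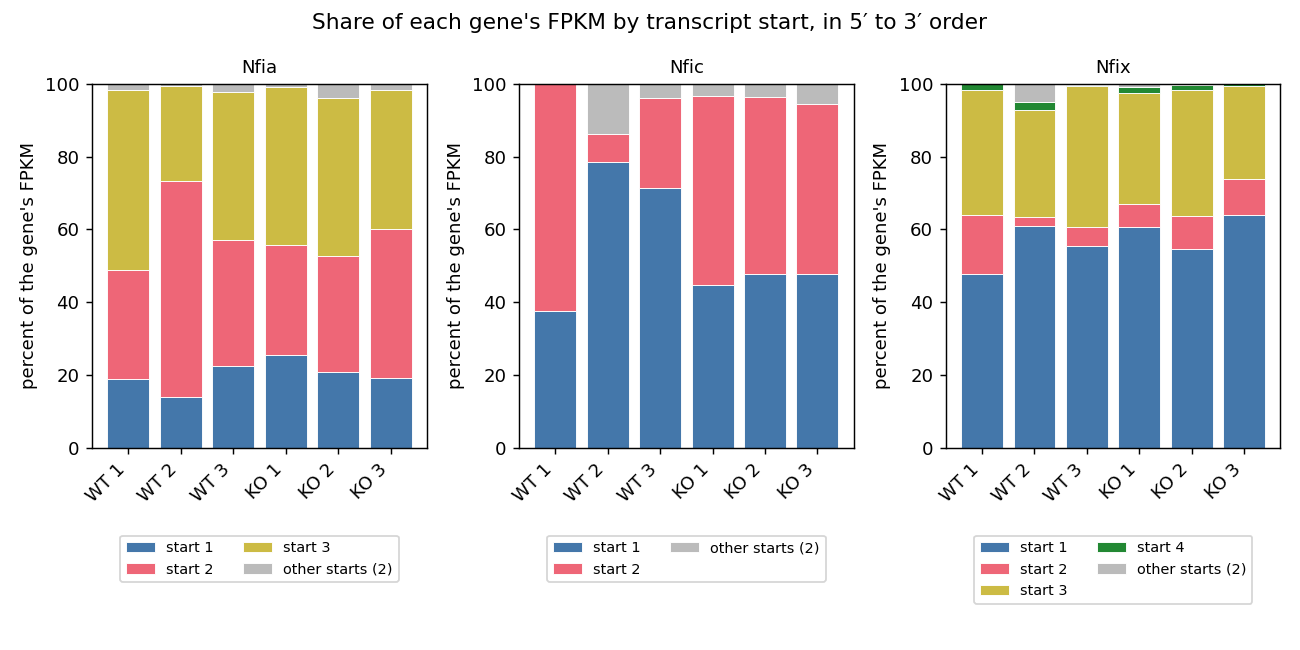
Share of the FPKM of Nfia, Nfic and Nfix (y axis, percent) by transcript start region in each library, numbered from the 5′ end of the gene. In Nfic the upstream region varies from 37.7% to 78.4% in WT-labelled libraries and from 44.7% to 47.8% in KO-labelled ones.

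Genes known to be linked with NFI factors differed in both directions. Of 16 glial genes that NFI factors are known to bind or that mark the glia they promote, 15 were tested, 1 was higher and 5 were lower in KO-labelled libraries, and 9 did not pass. Over all genes tested, 3.65% were called higher and 3.25% lower. This list and those below were chosen with earlier results of these data known, so their counts cannot show an excess over these shares. The astrocyte filament gene Gfap, a known NFI target, was at 75.8, 80.7 and 76.9 FPKM in WT-labelled libraries and at 29.6, 24.4 and 27.1 FPKM in KO-labelled ones, and it fell by 1.495 on the log2 scale (adjusted p = 0.002, limma). The water channel gene Aqp4 was at 10.6, 11.2 and 10.8 FPKM and at 2.80, 2.30 and 2.40 FPKM (log2 fold change -1.76, adjusted p = 0.00239, limma). Cst3, a secreted protease inhibitor of glia, was at 180, 205 and 157 FPKM and at 60.6, 56.5 and 52.7 FPKM (log2 fold change -1.65, adjusted p = 0.00291, limma). Aldh1l1, the folate enzyme used as an astrocyte marker, went the other way, from 2.01, 1.83 and 4.46 FPKM to 68.5, 68.5 and 69.0 FPKM (log2 fold change 4.27, adjusted p = 0.00194, limma), and shares its assembled locus with another gene. These 4 calls held in each of the 6 fits without a library. The other 2 genes that were lower were Apcdd1 and Apoe, whose calls held in 3 and 0 of those fits. The median log2 fold change of the 15 genes was 0.17, opposite in sign to most of the calls, and that of all genes was -0.02.

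Of 7 genes that are known to be repressed by NFI factors or belong to the progenitor program they end, 6 were tested, 1 was higher, 1 lower and 4 did not pass (median -0.46). Shares called over all genes tested, for this list and the next, were 3.65% higher and 3.25% lower. Ezh2, the histone methyltransferase of polycomb repressive complex 2, which NFI factors repress in mouse hippocampal progenitors, rose from 22.6 ± 1.30 to 33.6 ± 2.75 FPKM (SD, n = 3, adjusted p = 0.03, limma). That call held in 1 of the 6 fits without a library, the one without WT 2 (adjusted p 0.0441 to 0.106). Hes5, a Notch target that keeps progenitors undifferentiated, fell from 32.0 ± 18.8 to 5.72 ± 2.46 FPKM (SD, n = 3, adjusted p = 0.0465, limma). Its call held in 0 of the 6 fits without a library (adjusted p 0.0518 to 0.144), and its locus is joined with another gene. Of 10 genes that regulate NFI genes, Sox9 and Notch receptors among them, 0 passed (limma). The 2 with the smallest p were the Notch effector Rbpj, at 16.4 ± 5.29 and 8.42 ± 1.28 FPKM (adjusted p = 0.123), and the TGF-β receptor Tgfbr1, at 9.92 ± 3.45 and 5.91 ± 0.312 FPKM (adjusted p = 0.219). Both passed without WT 3 only (adjusted p = 0.038 and 0.0398, limma).

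Among 8 genes for partners of NFI proteins, 1 was higher, 0 were lower and 7 did not pass (median -0.04). Here and for the list that follows, the shares called over all genes tested were again 3.65% higher and 3.25% lower. The oligodendrocyte lineage factor Olig2 rose from 3.36 ± 0.935 to 16.0 ± 2.41 FPKM (SD, n = 3, adjusted p = 0.0076, limma). Of 14 genes of quiescent neural stem cells, the state in which Nfix acts, 12 were tested, 0 were higher, 3 lower and 9 did not pass (median -0.33). The BMP receptor gene Bmpr1a fell from 41.4 ± 2.97 to 19.9 ± 2.42 FPKM (adjusted p = 0.00861, limma), and Fgfr3, a growth factor receptor of astrocyte precursors, from 22.1 ± 1.33 to 11.7 ± 1.03 FPKM (adjusted p = 0.00945, limma). Id3, a BMP target that blocks differentiation, fell from 24.8 ± 6.61 to 10.5 ± 0.644 FPKM (adjusted p = 0.0268, limma), and its call held in 2 of 6 fits, those without WT 2 and WT 3 (adjusted p 0.027 to 0.0981). Beside these lists, the summed oligodendrocyte lineage markers given above were lower and the summed neural stem cell markers higher in each KO-labelled library than in any WT-labelled one, while the summed astrocyte markers overlapped. Of the 5 astrocyte markers, Gfap and Aqp4 were called lower in KO-labelled libraries and the rest did not pass. The part of these marker sums in the results was not tested.

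By profile over the 6 libraries, the genes most like each NFI gene were taken from 7899 named genes with a mean of at least 5 FPKM, by Pearson's r of log2(FPKM + 1). With so few libraries, which share depth and group between genes, high values of r are common, and they are given as a description. Most like Nfia were Cd9 (r = 0.989), Ntm (0.989) and Diaph1 (0.986). For Nfib they were Ctcf (0.992), Lgalsl (0.986) and Rundc1 (0.985). Each of them was, like Nfib, higher in WT 1, WT 2 and KO 1 than in the other 3 libraries, which picking genes by r favours. Lgalsl was at 15.6, 14.6 and 4.55 FPKM in WT-labelled libraries and at 13.4, 5.81 and 8.34 FPKM in KO-labelled ones. For Nfic they were Ywhaz (0.982), Ccar1 (0.980) and Gnl1 (0.9749), and for Nfix Eif4b (0.989), Spcs1 (0.988) and Zfpm2 (0.985). An r above 0.95 was reached by 25 genes with Nfia, 22 with Nfib, 11 with Nfic and 32 with Nfix.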

How the data were processed

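RNA was measured in 6 cultures, and each library was treated as 1 replicate of its label. Whether the cultures came from different animals is not known. The authors deposited FPKM and mean coverage per base (a signal not scaled to depth) for 125793 isoforms, per the file headers. Per the submitters' processing notes, cutadapt, FastQC, Bowtie2, TopHat2 and StringTie were used, and versions and genome build are not given in the sources used here. Columns named NT were taken as WT by elimination and by number, and 0 value columns were unused. The ratio of coverage to FPKM, constant within a library, gave its aligned bases. At these depths, 3 reads on a transcript of 2000 bases correspond to 0.0414 to 0.0529 FPKM.

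FPKM was summed per gene over annotated isoforms and assembled isoforms that overlap exons of the gene (95506 isoforms, 27694 genes). Intronic, intergenic, antisense and run-on isoforms were left out. StringTie divides reads among isoforms by estimation, which adds error to isoform levels. Part of it can carry into the gene sum, because FPKM depends on the length of the isoform given the reads. Nfic, for example, had 986 reads and 9.08 FPKM in WT 1, and 1951 reads and 11.2 FPKM in WT 2. Of annotated isoforms also in GENCODE M21, 95.9% had the same coordinates. R 4.3.3 with limma 3.58.1 (mean-variance trend, all 6 libraries, KO against WT, no covariate) was fitted to log2(FPKM + 1) for genes and isoforms with a mean of at least 1 FPKM, and to log2 isoform shares (an isoform over the remainder of its gene). Fold changes on this scale understate those of low genes. Calls had a Benjamini-Hochberg adjusted p under 0.05. The fits of genes and isoforms were also run on simulated data with independent normal values. Such data hold no library that stands apart, as WT 2 does, so they cannot show how the fits behave there. Python 3.11.15 with pandas 2.3.3, numpy 2.4.6 and scipy 1.17.1 did the rest. Start and end regions join isoforms whose starts or ends lie within 1000 bases of the next.

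The NFI genes and the gene lists were chosen with earlier results of these data known. Named were Vim, the NFI genes, per list, at most 4 called genes in order of p (without calls, the first 2) and the 3 genes most like each NFI gene, leaving out predicted gene models. Isoforms were named from those tested, and the ones described were chosen after their values were seen, as were Nfib-212, Apcdd1, Apoe, Sox2, Tubb3, Pdgfra, Aldoc, Sox9 and the Notch receptors. Alternatives were other pseudocounts, filters, scalings and isoform choices, no trend, a replicate block and leaving out each library.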

Additional observations from a re-analysis of the deposited data

How the results depend on the processing

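No alternative brought Nfib, Nfic or Nfix past the threshold in 18 alternatives each, and none changed their sign. Nfia passed in 1 (without WT 1, log2 fold change -0.58) and changed sign in 1 (highest isoform only, 0.16). With assembled isoforms left out of which WT 2 held over 90%, chosen after seeing the data, the change was -0.13 for Nfia and 0.63 for Nfic, and with reference transcripts only it was -0.12 and 0.80. For Nfic, both choices leave out most of the level of WT 2. With reference transcripts only, Nfib was at -0.62, and with the highest isoform only Nfib was at -1.13, Nfic at 0.57 and Nfix at -0.49. The cause was not tested. Without 1 library, the range was -0.58 to -0.14 for Nfia, -0.83 to -0.03 for Nfib, 0.06 to 0.21 for Nfic and -0.37 to -0.18 for Nfix.

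Genes called, 833, numbered 286 to 782 without 1 library, 235 with reference transcripts only, 542 with every class code and 128 with the highest isoform only. Isoforms called, 38, numbered 1 to 31 without 1 library, 14 with no filter, 75 with a filter of 5 FPKM and 22 with no trend. Isoform shares called, 0, numbered 0 to 4 without 1 library, 3 and 4 with a pseudocount of 0.1 and 5, 6 with no filter, 1 with a filter of 5 FPKM and 3 with no trend.

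With a replicate block, 15 genes and 0 isoforms (2321 at an unadjusted p under 0.05, limma) were called, and no NFI gene. Deviations from the group means correlated between equal numbers at 0.0119, -0.00306 and 0.0650, and of the KO libraries KO 3 alone correlated best with its own number. Such low values do not show that the numbers pair the libraries, and they cannot settle how the cultures were prepared.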
